A study of Mus musculus with 6 samples.

Results

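Long intergenic noncoding RNAs (lincRNAs), transcripts that lie between protein-coding genes and carry no annotated protein, were examined in CD8T cells cocultured with macrophages. A row of the deposited gene count table was included if its biotype was lincRNA and its raw count averaged at least 50 over the 6 libraries. These criteria gave 130 lincRNAs out of 5559 lincRNA rows, of which 1777 had at least 1 count, in a table of 54532 rows. The members were thus chosen by their mean count over both groups, with earlier results of these data known. A lincRNA could pass through the group in which it was higher. For example, the control libraries alone carried Gm34084, Gm35037, Gm17275 and Gm48604 past the minimum, and the DB2313 libraries alone carried 4930519L02Rik. All 130 also passed the filter on low counts, which kept 380 lincRNAs among 14883 genes tested. At the limit of the choice, Gm17275 and 5033406O09Rik averaged 52 counts and Gm48604 averaged 51, whereas A530010L16Rik and Gm6712 averaged 49.8 and Gm12319 averaged 48.5 and were left out.

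Per the methods, spleen was the source of the CD8T cells, which were stimulated with anti-CD3/CD28 Dynabeads. They then spent 24 hr in coculture with peritoneal macrophages that thioglycolate had induced in mice and that had been exposed to IFN-γ (10 ng/mL, 12 hr), in both groups. Macrophages of the control group (n = 3) received no DB2313. Those of the DB2313 group (n = 3) received 14 nM of DB2313, a small-molecule inhibitor of Spi1 (PU.1), the transcription factor that directs macrophage differentiation. GEO's labels call the cultured cells primary T cells and their partners DC cells, so the labels and the methods differ on the partner, while both give the same DB2313 grouping. Strain, age and sex of the donor mice, the separation of the cells after coculture, and whether the 3 samples of a group were separate cultures are not given in the sources used here; p-values therefore measure the spread between these samples, which may be technical. No T cells without a partner were analysed here.

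LincRNAs are transcribed by RNA polymerase II, are usually spliced and polyadenylated, and are expressed at lower levels and in fewer cell types than messenger RNAs. A few act in the nucleus as scaffolds, such as Neat1 in paraspeckles and Malat1 in nuclear speckles. Others matter mainly for what their introns or exons release, namely microRNAs or small nucleolar RNAs, and for some the act of transcription next to a gene is the known effect. In T cells, the host transcripts of miR-17, miR-142 and miR-155 are the best known of these, since the microRNAs they give rise to control lymphocyte growth, survival and activation.

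Of the 130 lincRNAs, 9 carried a mature microRNA of RefSeq on the same strand inside their gene. The mature sequences of the lymphocyte microRNAs are shown because their hosts were among the members and their changes differ in sign. Coordinates are those of GRCm38.p6 in RefSeq, bases run 5′ to 3′, and capitals mark the seed (bases 2 to 8), which pairs with target messages. Mir17hg carried 11 mature microRNAs between chr14:115043684-115044496 on the plus strand, in its exon, and 6 of them are given.
miR-17-5p: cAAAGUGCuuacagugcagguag
miR-20a-5p: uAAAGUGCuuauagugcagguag
miR-18a-5p: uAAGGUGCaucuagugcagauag
miR-19a-3p: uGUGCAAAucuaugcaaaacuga
miR-19b-3p: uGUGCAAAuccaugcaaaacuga
miR-92a-3p: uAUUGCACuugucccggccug
In this set miR-17-5p and miR-20a-5p had the same seed, as did miR-19a-3p and miR-19b-3p. Mir142hg carried both arms of miR-142a in an intron at chr11:87756867-87756925 (plus strand), Mir155hg carried miR-155-5p in an exon at chr16:84714143-84714165 (plus strand), and 6720427I07Rik carried let-7d-5p in an exon at chr13:48536078-48536099 (minus strand).
miR-142a-5p: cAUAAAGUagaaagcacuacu
miR-142a-3p: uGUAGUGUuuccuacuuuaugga
miR-155-5p: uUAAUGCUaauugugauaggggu
let-7d-5p: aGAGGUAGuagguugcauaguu
The rows of the microRNAs themselves held at most 6 counts in any library, so only the host transcripts could be compared.

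The promoters of 4 members are shown because Spi1 was the target of the inhibitor and these members moved clearly between the groups. A RefSeq promoter window (GRCm38.p6, 250 bases before to 50 after the start) was found for 65 of the 130 members. A RefSeq start was accepted up to 2000 bases from the start of the row. Some windows may thus miss the promoter, such as that of Mir17hg, which is 1511 bases off and lies inside its gene. Capitals mark the letters GAGGAA, the purine-rich core of the sequence that Spi1 binds, on either strand (TTCCTC on the other). The windows are chr6:89285676-89285975 (minus strand) for 4930512J16Rik, chr2:28095095-28095394 (plus) for F730016J06Rik, chr19:5802623-5802922 (minus) for Malat1 and chr5:110514673-110514972 (plus) for A630023P12Rik.
4930512J16Rik: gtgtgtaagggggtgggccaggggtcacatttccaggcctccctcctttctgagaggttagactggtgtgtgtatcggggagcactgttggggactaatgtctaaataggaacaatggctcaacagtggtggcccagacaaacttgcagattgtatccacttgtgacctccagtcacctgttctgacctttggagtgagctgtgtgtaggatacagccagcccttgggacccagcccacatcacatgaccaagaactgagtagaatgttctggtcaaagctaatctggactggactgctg
F730016J06Rik: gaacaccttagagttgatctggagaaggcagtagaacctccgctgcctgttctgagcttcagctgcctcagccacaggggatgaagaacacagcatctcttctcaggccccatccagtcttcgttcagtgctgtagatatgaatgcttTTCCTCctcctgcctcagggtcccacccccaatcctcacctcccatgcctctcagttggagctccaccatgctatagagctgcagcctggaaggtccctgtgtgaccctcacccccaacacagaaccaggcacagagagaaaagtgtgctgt
Malat1: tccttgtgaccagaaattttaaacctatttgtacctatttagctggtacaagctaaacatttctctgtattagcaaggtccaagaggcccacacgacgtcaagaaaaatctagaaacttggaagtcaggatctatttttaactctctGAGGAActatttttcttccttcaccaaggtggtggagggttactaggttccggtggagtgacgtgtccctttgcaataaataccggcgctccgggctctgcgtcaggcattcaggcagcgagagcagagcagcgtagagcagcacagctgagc
A630023P12Rik: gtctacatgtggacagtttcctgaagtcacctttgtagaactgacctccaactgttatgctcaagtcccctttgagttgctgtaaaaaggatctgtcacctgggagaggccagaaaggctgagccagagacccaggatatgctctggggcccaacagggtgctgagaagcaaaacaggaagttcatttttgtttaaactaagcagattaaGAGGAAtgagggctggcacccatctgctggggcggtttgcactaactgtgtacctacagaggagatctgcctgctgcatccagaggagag
The 6 letters were present in 23 of the 65 member windows (35.4%), and in 28.3% of all 32851 promoter windows of the same length. They were in 5 of 13 windows of members that were higher and in 5 of 13 windows of members that were lower (38.5% each), and in 13 of 39 windows of members not called (33.3%). The longer form GAGGAAGT, which contains the shorter one, was in 7 member windows (10.8%) against 3.20% of all windows. It was in 1 of 13 windows of higher members, in 0 of 13 windows of lower members and in 6 of 39 windows of members not called (15.4%). A match of letters describes the sequence only.

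Library totals ranged from 16611975 to 18596217 counts, and no library stood apart from its group. The cell type markers moved with the groups. All 20 T cell markers (Cd3e, Cd8a, Lck and others) were higher in the DB2313 group (median log2 fold change 0.59), and their summed level rose from 3367 to 3391 CPM (counts scaled to the depth of each library with TMM factors) in the control libraries to 5043 to 5114 CPM in the DB2313 libraries. Of 20 macrophage markers (Lyz2, Csf1r, Adgre1 and others), 19 were lower and 1 was higher, with a median of −1.05, and their sum was 14385 to 14776 CPM in the control libraries and 5351 to 5513 CPM in the DB2313 libraries. None of the markers of either list was at 0, and macrophage marker transcripts were present in every library of the T cells. Neutrophil markers summed to 1438 to 1460 CPM and 539 to 562 CPM, with 7 of 8 lower and 1 higher. Among the 8 dendritic cell markers Siglech was at 0, and of the 7 tested 2 were higher and 4 lower, with sums of 224 to 229 and 175 to 177 CPM. B cell markers summed to 48.1 to 52.5 and 62.8 to 63.7 CPM, with 3 of 6 higher and 1 lower. In bulk RNA, fewer cells of a type and less RNA per cell cannot be told apart, and the part of these cell type differences in the lincRNA results below was not tested.

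In the DB2313 group, 29 of the 130 lincRNAs were higher (22.3%) and 21 were lower (16.2%) at an adjusted p below 0.05 (edgeR quasi-likelihood test, Benjamini-Hochberg adjustment over all genes tested). Over all genes tested, 20.8% were called higher and 24.6% lower, and over the 11776 genes that also averaged at least 50 counts, 24.3% were higher and 28.2% lower. With a log2 fold change beyond 1 required as well, 0 members were higher and 5 were lower (3.85%), with 0 higher also at an unadjusted p below 0.05 and by DESeq2, where the share of all genes tested was 1.37% higher and 5.3% lower and that of the genes with at least 50 counts was 0.51% higher and 4.26% lower. These counts moved with the setting, to 2 higher by library size, 1 higher by upper quartile, 16 lower with the libraries scaled to the summed T cell markers, and 3 lower where glmTreat tested against the fold threshold itself. No overlap between control and DB2313 libraries was found for 61 members (46.9%), beside 53.1% of all genes tested and 59.4% of those with at least 50 counts. The shares of called lincRNAs were thus near those of other genes for rises and below them for falls. These sets of genes were not matched to the members in count, and 48 members averaged under 100 counts. Whether count accounts for the difference in falls was not tested.

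The changes were mostly small, as they were over all genes tested. The log2 fold changes of the 130 members ran from −1.62 to 0.96 with a median of 0.11 and quartiles of −0.13 and 0.33. Over all genes tested the median was 0.02 and the quartiles −0.24 and 0.22. Over those with at least 50 counts the quartiles were −0.21 and 0.19. In all, 103 members had an absolute log2 fold change under 0.5. Of the 130 members, 77 were above 0 and 53 below, beside 7780 and 7103 of all genes tested. The split of calls moved with the scaling of the libraries. By TMM 58% of the called members were higher, and by library size 71.4% (45 higher, 18 lower), by upper quartile 68.3% (41 higher, 19 lower) and by DESeq2 50% (19 higher, 19 lower). With the libraries scaled to the summed T cell markers, the median of all genes tested shifted by −0.59 and 0 members were called higher and 88 lower.

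**Figure D1:**
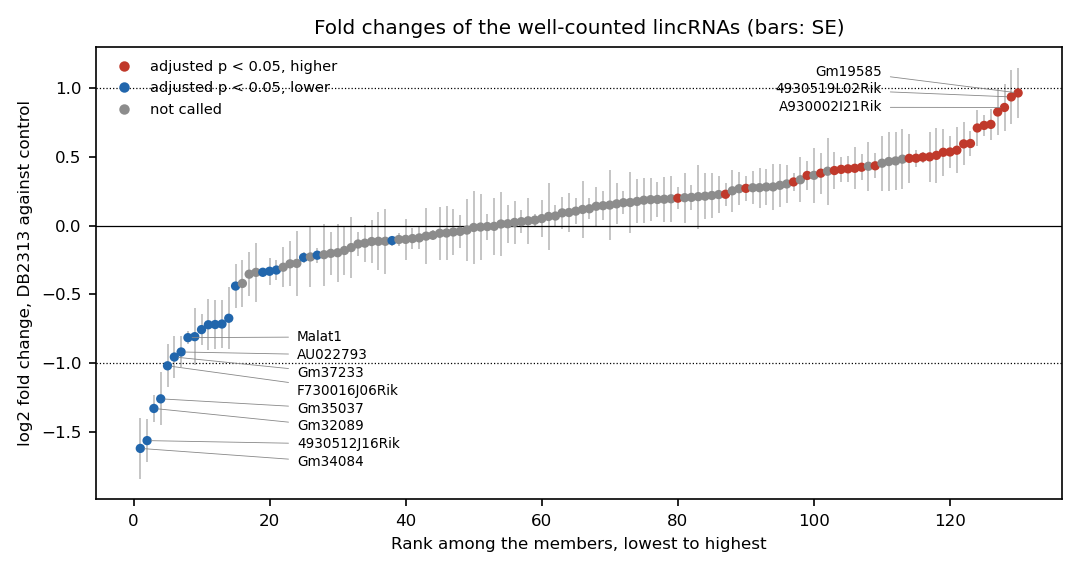
Log2 fold change of each of the 130 lincRNAs (DB2313 against control, y axis) by rank from the lowest to the highest (x axis), with bars for the standard error and dotted lines at −1 and 1. The 5 members past −1 are Gm34084, 4930512J16Rik, Gm32089, Gm35037 and F730016J06Rik, and no member reaches 1.

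Abundance was concentrated in a few lincRNAs. Together, the members took 0.378% ± 0.0111 of the counts of a control library and 0.369% ± 0.00991 of a DB2313 library (mean ± SD, n = 3), ranges that overlapped (0.365% to 0.386% and 0.358% to 0.377%). They accounted for 89.8% ± 0.235 and 89.3% ± 0.134 of all lincRNA counts. Neat1 and Malat1, neighbours 22036 bases apart on chromosome 19, made up 31.5% ± 0.834 of the members' counts in control libraries and 25.4% ± 0.751 in DB2313 libraries, and these ranges did not overlap (30.6% to 32.1% and 24.7% to 26.2%). Only 9 members averaged over 1000 counts, 73 lay between 100 and 1000, and 48 were under 100. The median standard error of the log2 fold change was 0.039, 0.13 and 0.21 in these classes, so that the fold changes were most precise in the first class. Of the 9 most counted members, 1 was higher and 5 were lower.

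Malat1 (ENSMUSG00000092341, chr19:5795690-5802672, minus strand), the long transcript of nuclear speckles that takes part in the control of splicing and transcription, was the second most counted member. Its raw counts were 12415, 11938 and 9933 in the control libraries and 7351, 5915 and 7106 in the DB2313 libraries. All control libraries were above all DB2313 libraries, and the level fell from 663 ± 48.9 to 377 ± 26.9 CPM (mean ± SD, n = 3; log2 fold change −0.81, SE 0.05, adjusted p = 1.15e-12). Neat1 (ENSMUSG00000092274, chr19:5824708-5845478, minus strand), on which paraspeckles assemble, had 10318, 10114 and 9058 counts in the control libraries and 10307, 8748 and 9533 in the DB2313 libraries. Its groups overlapped in CPM, at 571 ± 17.6 and 530 ± 24.7, and the log2 fold change was −0.11 (SE 0.04, adjusted p = 0.0168). That call was lost without control 2, DB2313 2 or DB2313 3 (−0.09 in each case) and with library size or upper quartile scaling (−0.01 and −0.05). The difference between the changes of these neighbouring transcripts was not tested.

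AW112010 (ENSMUSG00000075010, chr19:11047617-11050566, minus strand), an inflammation-induced RNA from which a short protein has been described, was the highest member per length, at 572 CPM per kb averaged over the libraries, ahead of Mir142hg at 163 and Malat1 at 74.5. Its counts were 8683, 8774 and 7908 in the control libraries and 7328, 6661 and 6964 in the DB2313 libraries. The groups were apart, and the level fell from 492 ± 16.4 to 389 ± 9.26 CPM (log2 fold change −0.34, SE 0.03, adjusted p = 1.69e-08). AU020206 (chr7:75769038-75782099, minus strand) had 4639, 4169 and 3790 counts against 3933, 3501 and 3764, and fell by 0.23 on the log2 scale (SE 0.04, adjusted p = 2.9e-05). 1810058I24Rik, which RefSeq types as protein-coding, fell by 0.22 (SE 0.05, adjusted p = 0.00237) from 1143, 1053 and 1032 counts to 1036, 916 and 954, a call that was lost by library size (−0.12). The other 3 of the 9 were not called, namely Norad (2900097C17Rik in the table), Oip5os1 (1700020I14Rik) and Gm42047.

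Gm26917 (chr17:39843013-39846341, plus strand), a row that overlaps ribosomal RNA repeats, was the only member of this abundance that was higher. Its counts were 2548, 2515 and 2462 in the control libraries and 3774, 3672 and 3655 in the DB2313 libraries, which differed far more between than within the groups. The level rose from 146 ± 4.60 to 206 ± 8.41 CPM (log2 fold change 0.50, SE 0.04, adjusted p = 2.24e-10), and with the T cell marker scaling it turned to −0.09. Reads of ribosomal RNA repeats cannot be assigned to 1 copy, so this value is uncertain as a gene level.

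**Figure D2:**
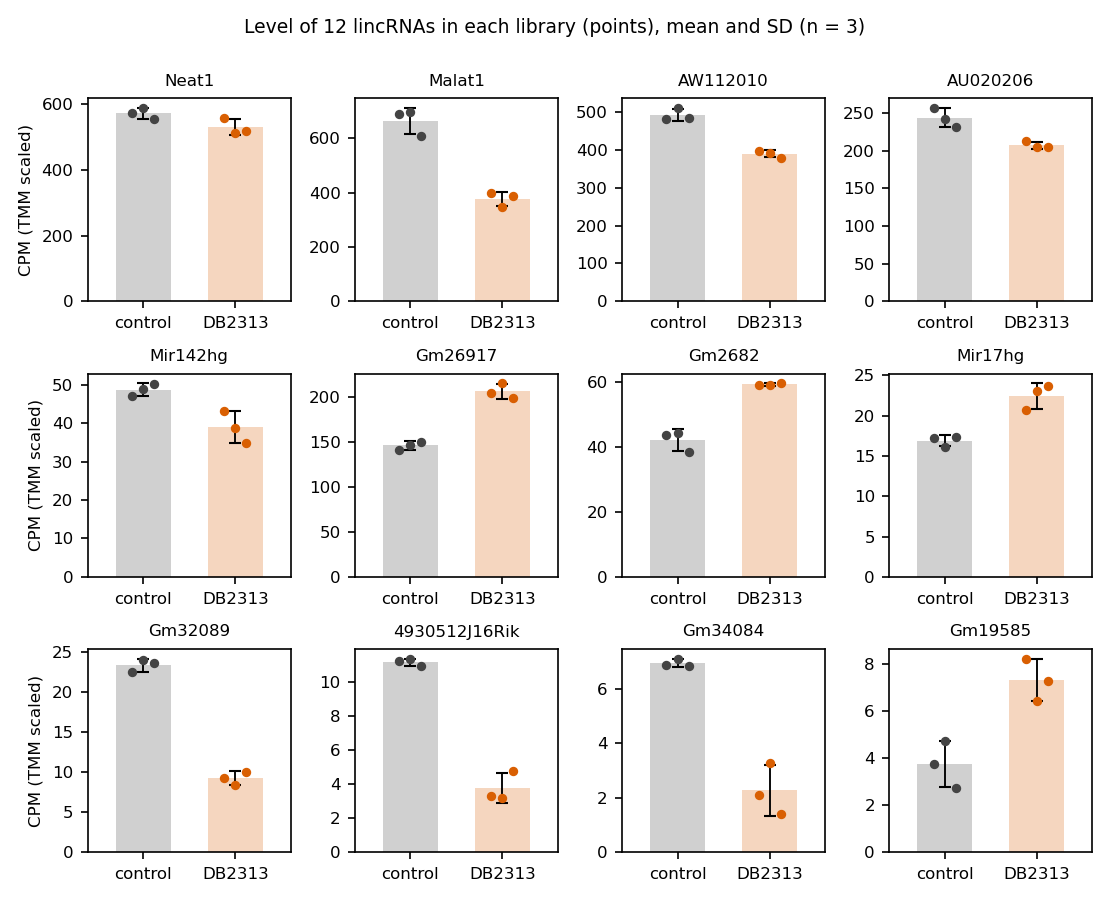
Level of 12 lincRNAs in CPM scaled by TMM (y axis, from 0) in the control and DB2313 groups (x axis), with a point for each library, bars for the mean and whiskers for the SD (n = 3). The groups do not overlap for any panel but Neat1, and relative to their level Gm32089, 4930512J16Rik and Gm34084 show the widest gaps.

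The 5 falls past the fold threshold were in transcripts with at least 4 annotated exons. Gm34084 (chr13:44472426-44504548, minus strand) had 124, 122 and 112 counts in the control libraries and 39, 56 and 26 in the DB2313 libraries. Its level was 6.94 ± 0.140 and 2.27 ± 0.944 CPM (log2 fold change −1.62, SE 0.22, adjusted p = 1.56e-06), the largest fall of a member. 4930512J16Rik (chr6:89269511-89285725, minus strand) had 203, 195 and 179 counts in the control libraries and 61, 55 and 88 in the DB2313 libraries. This came to 11.2 ± 0.215 and 3.77 ± 0.878 CPM (log2 fold change −1.56, SE 0.16, adjusted p = 1.22e-08). In both, the highest DB2313 library stayed below every control library by a wide margin.

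Gm32089 (chr13:94289448-94295006, minus strand) was the best counted of the 5, with 404, 412 and 385 counts in the control libraries and 172, 143 and 185 in the DB2313 libraries. Its level fell from 23.3 ± 0.815 to 9.25 ± 0.839 CPM (log2 fold change −1.33, SE 0.10, adjusted p = 8.85e-11). Gm35037 (chr7:3451357-3475020, plus strand) had 101, 109 and 128 counts against 48, 40 and 60 (log2 fold change −1.26, SE 0.19, adjusted p = 9.41e-06). F730016J06Rik (chr2:28095477-28127731, plus strand) had 145, 172 and 144 counts against 76, 66 and 96, and lay at the threshold (log2 fold change −1.02, SE 0.16, adjusted p = 1.03e-05). The groups of all 5 were apart, and each stayed lower and called at an adjusted p below 0.05 in all 13 alternatives tried for single members. Those do not include glmTreat, which tested against the fold threshold itself and called 3 members lower. Of the members, 4 fell by more than the median macrophage marker (−1.05), and F730016J06Rik fell by less.

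The nearest tested protein-coding genes of these 5 did not form a single pattern. Plxna1, a semaphorin receptor 30589 bases from 4930512J16Rik, was also lower (log2 fold change −1.04, adjusted p = 9.89e-16), as was Tarm1, a receptor of myeloid cells 11480 bases from Gm35037 (−1.09, adjusted p = 8.48e-14). Scamp1, a membrane protein of secretory carriers 3591 bases from Gm32089, was lower by less (−0.39, adjusted p = 6.52e-06). Jarid2, a Polycomb cofactor 224926 bases from Gm34084, had a log2 fold change of 0.03 (adjusted p = 0.707), and Fcnb, a myeloid lectin 10592 bases from F730016J06Rik, one of −0.06 (SE 0.26, adjusted p = 0.863).

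Smaller falls, named after their values were seen, included Gm37233, the host of miR-5103, with 169, 153 and 124 counts against 87, 67 and 86 (log2 fold change −0.96), and AU022793, with 303, 328 and 248 counts against 159, 161 and 165 (−0.92). Gdap10, which overlaps Nampt, an enzyme of NAD synthesis, had 267, 257 and 211 counts against 163, 145 and 146 (−0.76, with −0.44 for Nampt). A930007I19Rik, which overlaps Ric1, was at −0.72, with −0.60 for Ric1. Since strand use in the counting is not stated, reads of an overlapping pair cannot be told apart. Altogether 14 members were lower by more than 0.5 on the log2 scale and 13 were higher by more than 0.5.

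The largest rises, none past the fold threshold and likewise named after their values were seen, were seen in members of low count. Gm19585 (chr17:51986415-52163976, plus strand) had 68, 81 and 45 counts in the control libraries and 152, 110 and 134 in the DB2313 libraries, groups that were apart (log2 fold change 0.96, SE 0.18, adjusted p = 0.000149). Its nearest tested protein-coding gene, Satb1, a chromatin organiser of T cells 153125 bases away, was also higher (0.50, adjusted p = 1.5e-11). 4930519L02Rik, which RefSeq types as protein-coding, had 64, 40 and 45 counts against 116, 86 and 96 (0.94, adjusted p = 0.000436). A930002I21Rik had 61, 72 and 55 counts against 130, 106 and 121 (0.86, adjusted p = 0.000204), and Gm30948 had 126, 105 and 72 against 175, 152 and 234 (0.83, adjusted p = 0.000241). In each, the lowest DB2313 library was above the highest control library in CPM.

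Better counted rises, also named after their values were seen, were A630023P12Rik and Fam120aos. A630023P12Rik (chr5:110514923-110525980, plus strand) had 455, 399 and 367 counts in the control libraries and 655, 688 and 768 in the DB2313 libraries, from 23.6 ± 1.44 to 39.2 ± 3.29 CPM (log2 fold change 0.73, SE 0.08, adjusted p = 4.27e-08). Fam120aos had 160, 163 and 156 counts against 286, 293 and 254 (0.74, SE 0.11, adjusted p = 9.56e-06). The next, Gm43698 and BC043934, rose by 0.71 and 0.60. In all, 9 members exceeded the median T cell marker (0.59), and with the T cell marker scaling none of the 130 was called higher.

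**Figure D3:**
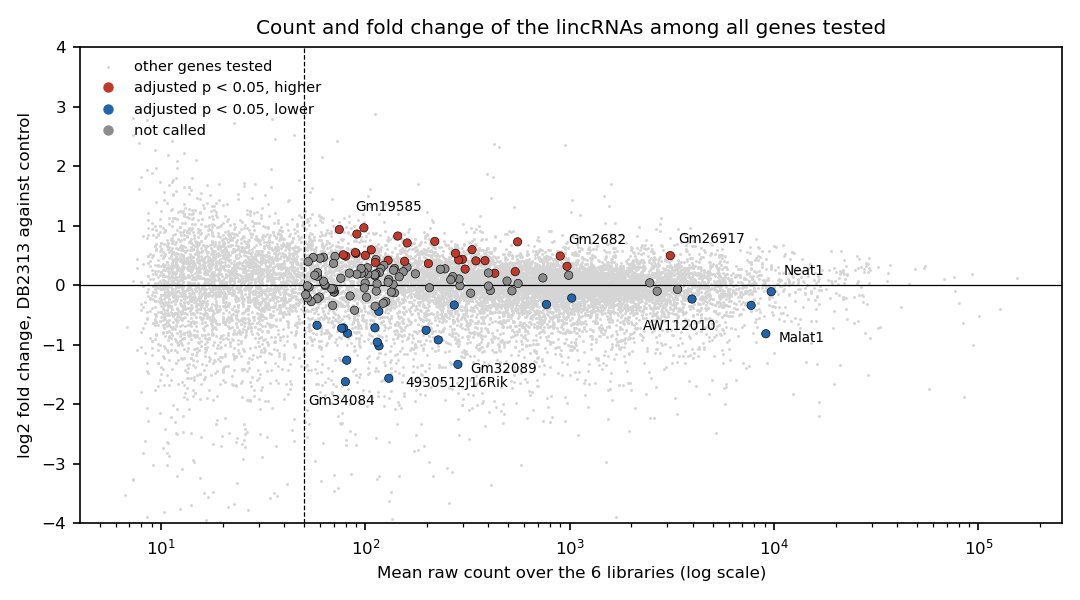
Log2 fold change (DB2313 against control, y axis) by mean raw count over the 6 libraries (x axis, log scale) for the 130 lincRNAs, coloured by call, and for the other genes tested in grey, with a dashed line at the minimum of 50 counts. The drawn range is −4 to 4, which leaves out 18 grey genes, and the lincRNAs lie within −1.62 and 0.96.

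The known lincRNAs were read by group. Counts of called genes in each group stand beside 20.8% called higher and 24.6% called lower over all genes tested, and no group was tested as a set. Of the nuclear architecture and X inactivation group, 3 genes were members. Malat1 and Neat1 were lower, as above, and Ftx, a transcript of the X inactivation centre and host of miR-374b and miR-421, was higher, with 63, 94 and 85 counts against 104, 131 and 123 (log2 fold change 0.50, SE 0.18, adjusted p = 0.0285), a call that was lost without control 1 (0.32) or DB2313 2 (0.39) and with DESeq2 (0.50), and that turned to −0.09 with the T cell marker scaling. Over the 7 tested genes of this group, 2 were higher and 4 lower, with a median of −0.11. Among their protein partners no gene passed the fold threshold. Of 14 paraspeckle and nuclear speckle proteins, 6 were higher and 1 lower (median 0.08, range −0.17 to 0.31), with the 3 most counted being Srrm2 at −0.06 and Son at −0.0014, both not called, and Hnrnpk at 0.12 (adjusted p = 0.00613). Of 8 partners of Xist, 3 were higher and 1 lower (median 0.04, range −0.18 to 0.35). The 3 most counted were Hnrnpu at 0.11 (adjusted p = 0.0138), and Ptbp1 at 0.06 and Celf1 at 0.03, both not called. Xist itself was not a member, averaged 2 counts per library and was not tested.

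The small nucleolar RNA hosts keep introns that are processed into guides for ribosomal RNA modification, while their spliced exons are mostly degraded by nonsense-mediated decay. Of 4 member hosts, 2 were higher and 0 lower, with a median of 0.20 that turned to −0.38 with the T cell marker scaling. Snhg20 had 454, 476 and 527 counts against 639, 538 and 612, overlapping groups in CPM (log2 fold change 0.23, SE 0.08, adjusted p = 0.0276). Epb41l4aos had 416, 370 and 385 counts against 504, 415 and 488 (0.20, SE 0.08, adjusted p = 0.0463). With DESeq2 neither was called (0.23 and 0.20), and Epb41l4aos was also not called with no filter, with at least 10 counts in every sample or with the replicate number as a block (0.20 each). Both calls depended on single libraries. Snhg20 was not called without control 1, control 2 or DB2313 1 (0.15, 0.21 and 0.20) and Epb41l4aos not without any library but DB2313 2 (0.16 to 0.23). Snhg12 (0.21, adjusted p = 0.0729) and Snhg6 (0.03, adjusted p = 0.805) were not called. Over all 14 tested hosts, 6 were higher and 1 lower, with a median of 0.15. Of the 8 proteins of small nucleolar ribonucleoproteins, 4 were higher and 0 lower (median 0.17), and a range of −0.07 to 0.36. Their 3 most counted were Nop56 at 0.29 (adjusted p = 1.17e-06) and Fbl and Snu13 at 0.02 and 0.09 and not called, and the highest was Dkc1, the pseudouridine synthase, at 0.36 (adjusted p = 7.97e-06). Of 10 factors of nonsense-mediated decay, 3 were higher and 0 lower (median 0.04, range −0.11 to 0.34). Upf3b rose most, by 0.34 (adjusted p = 0.00123), followed by Upf3a at 0.23 (adjusted p = 0.0081) and Smg5 at 0.17 (adjusted p = 0.00128), while the well counted Smg1 and Upf1 were at 0.07 and 0.01 and not called. Dkc1, Upf3b and Upf3a were named after their values were seen.

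The microRNA hosts whose sequences are given above did not move in a common direction. Mir17hg (chr14:115042879-115046727, plus strand), host of the cluster that promotes lymphocyte proliferation, had 310, 278 and 285 counts in the control libraries and 382, 394 and 435 in the DB2313 libraries, groups that were apart (log2 fold change 0.41, SE 0.09, adjusted p = 0.000538; −0.18 with the T cell marker scaling). Mir142hg (chr11:87755577-87757270, plus strand), host of the blood cell microRNA miR-142, had 848, 842 and 823 counts against 797, 663 and 641. It fell from 48.8 ± 1.65 to 38.9 ± 4.16 CPM (log2 fold change −0.32, SE 0.07, adjusted p = 0.000649). Mir155hg, host of miR-155, which activated lymphocytes and macrophages express, had 426, 411 and 400 counts against 404, 373 and 439, overlapping groups that were not called (−0.09, SE 0.08, adjusted p = 0.381; 0.01 by library size). 6720427I07Rik, which carries let-7d, had 89, 100 and 95 counts against 134, 127 and 126 (0.38, SE 0.15, adjusted p = 0.0392). That call was lost with DESeq2, with no filter, with the replicate number as a block and without control 1, control 2, DB2313 1 or DB2313 2 (0.31 to 0.42). Over the 7 tested genes of the microRNA host list, 1 was higher and 3 lower with a median of −0.10, and the 3 members among them gave 1 higher, 1 lower and a median of −0.09. Of the 9 members that carry a mature microRNA, Mir17hg, Snhg20, 6720427I07Rik and Ftx were higher, Mir142hg and Gm37233 were lower, and Mir155hg, E130102H24Rik and 2900076A07Rik were not called. The shares over all genes tested were 20.8% higher and 24.6% lower.

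Of the immune and inflammatory lncRNAs, 4 were members, 2 of them higher and 0 lower, with a median of 0.21 that turned to −0.37 with the T cell marker scaling. Gm2682 (chr15:60120540-60187408, minus strand) had 792, 763 and 630 counts in the control libraries and 1092, 1011 and 1100 in the DB2313 libraries, with the DB2313 libraries close together at 59.4 ± 0.352 CPM and all above the control libraries at 42.3 ± 3.28 CPM (log2 fold change 0.49, SE 0.06, adjusted p = 6.35e-07; −0.10 with the T cell marker scaling). Gm26809 had 397, 297 and 273 counts against 466, 422 and 454 (0.41, SE 0.10, adjusted p = 0.00104; −0.17 with that scaling). Morrbid (Gm14005), which controls the death gene Bcl2l11 in short-lived myeloid cells, had 132, 134 and 131 counts against 116, 122 and 98 (−0.30, SE 0.15, adjusted p = 0.0975) and was called lower only without DB2313 2 (−0.41) or with the T cell marker scaling (−0.89). Mirt1, whose span overlaps that of another member, stayed at 0.01 (SE 0.14, adjusted p = 0.949). Over the 11 tested genes of the list, 3 were higher and 1 lower, with a median of 0.01.

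In the growth, p53 and genome stability group, 0 of 4 members and 0 of 7 tested genes were called by edgeR, 2 and 3 of them had an unadjusted p below 0.05, and 0 of the 7 were called by DESeq2. Norad, which binds Pumilio proteins and guards genome stability, had 3553, 3441 and 3137 counts against 3454, 3176 and 3451 (log2 fold change −0.07, SE 0.03, adjusted p = 0.106). Oip5os1, which triggers the decay of miR-7, had 2998, 2721 and 2419 counts against 2705, 2388 and 2831 (−0.10, SE 0.04, adjusted p = 0.0672), with a call without control 3 (−0.14) or DB2313 3 (−0.14). Pvt1, which neighbours Myc, had 135, 118 and 114 counts against 151, 142 and 173 (0.28, SE 0.13, adjusted p = 0.0882). Lockd, downstream of the cell cycle inhibitor gene Cdkn1b, had 115, 165 and 125 counts against 142, 100 and 108 (−0.28, SE 0.16, adjusted p = 0.174).

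Each member was set beside its nearest tested protein-coding gene, since lincRNAs are often transcribed together with a neighbour. Of the 50 called members, 33 had a neighbour whose log2 fold change had the same sign (66%), and where both were called, 19 of 28 moved the same way. For the 113 members that did not overlap this neighbour, 28 of 45 called members shared the sign (62.2%). Where both were called, 15 of 24 of these did, and Pearson r and Spearman rho were both 0.32. Of the 21 members that were lower, 12 had a neighbour called lower and 3 a neighbour called higher, whereas of the 29 that were higher, 7 had a neighbour called higher and 6 a neighbour called lower. Within 5 kb the sign was shared by 16 of 21 called members (76.2%) and within 50 kb by 27 of 36 (75%). Across genes, the log2 fold changes of member and neighbour had a Pearson r of 0.34 and a Spearman rho of 0.36 (n = 130), and 0.47 and 0.51 for the 63 members with a neighbour within 5 kb. These are descriptions, since all points come from the same 6 libraries, in which T cell and macrophage markers moved in opposite directions, and 21 members overlap the span of a protein-coding gene. The same shares were not computed for other genes and their neighbours, so whether they are particular to lincRNAs was not tested.

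**Figure D4:**
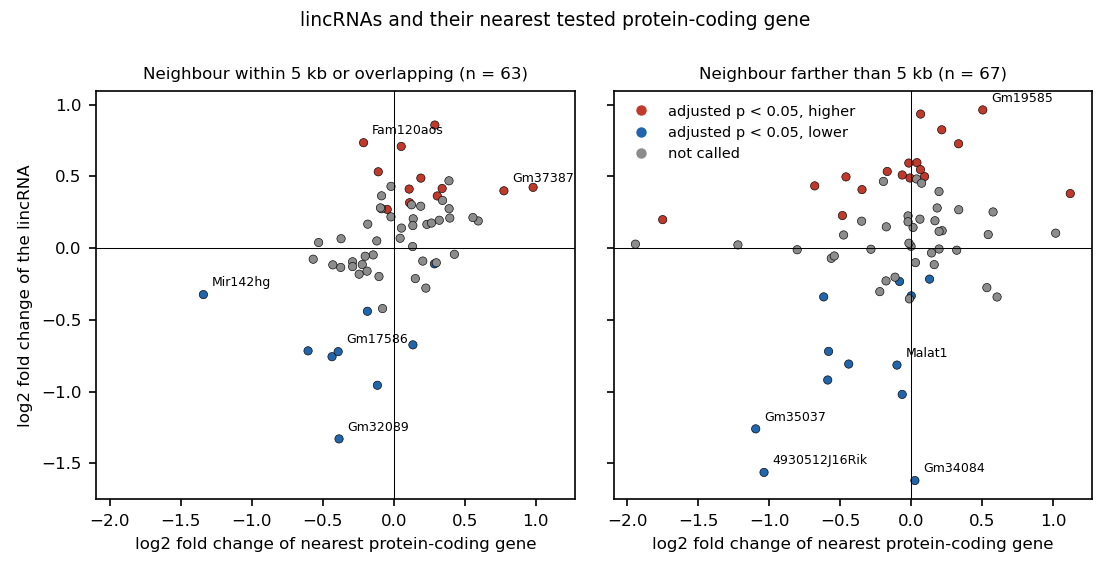
Log2 fold change of each lincRNA (y axis) by that of its nearest tested protein-coding gene (x axis), with neighbours within 5 kb or overlapping on the left and farther neighbours on the right, coloured by call. Gm32089 and Mir142hg share a fall with a near neighbour, Gm35037 and 4930512J16Rik with a farther one, and Gm34084 fell beside a neighbour at 0.03.

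A head-to-head arrangement, with starts within 2 kb of a protein-coding gene on the other strand, was found for 11 members, of which 5 were called and 8 had the sign of their partner. Of all 130 members 22.3% were called higher and 16.2% lower, and of all genes tested 20.8% and 24.6%. The sign was counted whether or not a gene was called, and the same share was not computed for other gene pairs. Fam120aos and Fam120a, 270 bases apart, moved in opposite directions, at 0.74 and −0.21 (adjusted p = 1.55e-05 for Fam120a). Gm17586 had 88, 94 and 99 counts against 57, 67 and 54, and both it and Mafg, a small Maf transcription factor 168 bases away, were lower (−0.72 and −0.39, adjusted p = 0.00284 and 5e-08). Gm38102 and Rhof were both higher (0.49 and 0.19), while A430046D13Rik and 4632404H12Rik were higher (0.36 and 0.27) beside Myl6b and Ube2q1 (0.31 and −0.05), which were not called, and AI480526 (0.28) and Setd1b (−0.09) were both not called. The spans of Gm38102 and AI480526 overlap, and with strand use not stated the reads of these 2 members cannot be told apart. With DESeq2 the calls of Gm38102 and 4632404H12Rik were lost (0.49 and 0.27), as were those of Gm38102 without control 2, DB2313 2 or DB2313 3 (0.40 to 0.47) and of 4632404H12Rik without control 1, control 3 or DB2313 1 (0.21 to 0.27), while AI480526 was called without control 3 or DB2313 1 (0.41 and 0.33) and by library size or upper quartile (0.37 and 0.34). Mir142hg fell by 0.32 and Tspoap1, its neighbour 3271 bases away, by 1.34. Gm37387 and the T cell gene Ms4a4b, 1701 bases apart, were both higher (0.40 and 0.78, adjusted p = 0.0198 and 5.65e-15), with the call of Gm37387 lost by DESeq2 (0.40) and without control 1, control 3 or DB2313 3 (0.31 to 0.36).

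Of the 80 members not called, 13 had an unadjusted p below 0.05, and the libraries of 14 did not overlap between the groups. Conversely, 3 of the called members had overlapping libraries, namely Neat1, Snhg20 and Gm32633 (0.51), whose call was lost with DESeq2 and without control 1, control 3, DB2313 1 or DB2313 2 (0.38 to 0.52). The coefficient of variation within a group had a median of 10.3% in the control and 11.3% in the DB2313 libraries, and was highest for Gm10076, a row that RefSeq types as a pseudogene, with 179, 489 and 503 counts against 341, 254 and 634. Reads of such a row may belong to its near-identical parent, and its log2 fold change of −0.01 (SE 0.26) changed sign when single libraries were left out (up to 0.25 without control 3). By annotation, 129 of the members were found in GENCODE release 21 and 126 were typed lincRNA there. Of 89 with a RefSeq gene, 78 were typed lncRNA, 9 protein-coding and 2 pseudogene, so that the name lincRNA did not hold for all members in every annotation. They lay on 20 chromosomes, 20 had 1 exon, and their lengths in the table ran from 269 to 20771 bases with a median of 2420.5.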

How the data were processed

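The libraries were made from CD8T cells after coculture, 3 with control and 3 with DB2313-treated macrophages. The authors sequenced, aligned and counted the reads and deposited raw counts per gene, as whole numbers with no normalization. The methods name LifeScope for alignment and counting, whereas the submitters' processing notes name CASAVA 1.8, HISAT2 2.0.5 and featureCounts 1.5.0-p3. Genome build, annotation and strandedness are not given in the sources used here. Of the 54495 rows shared with GENCODE mouse release 21 (GRCm38), 98.3% had equal coordinates, which were used as the table gives them. Depth was 16611975 to 18596217 counts per library. A count of 0 allows 3 counts, and intervals of this kind cover counting error only, since the reads carry no molecular identifiers.

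Counts were tested with edgeR 4.0.16 in R 4.3.3 (filterByExpr, TMM, glmQLFit, glmQLFTest; no covariate), with p-values adjusted over all 14883 genes tested and thresholds of 0.05 and an absolute log2 fold change of 1. The script was tested on simulated data. CPM were scaled by TMM. The members and gene lists were chosen with earlier results of these data known, so no test was made over a list. Members are named if they belong to a function list, are among the 8 largest rises or falls past both thresholds without overlap, are among the 5 most counted overall or per kb, lie next to the minimum of 50 counts, or are among the 6 head-to-head members with the largest change. The genes nearest to these largest changes and the 3 most counted genes of each protein list are also named by rule. Every other member or neighbour named was chosen after its values were seen. RefSeq entries were matched by symbol or synonym, and the microRNA and promoter sequences are from RefSeq (GRCm38.p6). Nearest genes are tested protein-coding genes by distance between gene ends.

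Alternatives were DESeq2 1.42.0, library size, upper quartile and T cell marker scaling, a minimum of 10 counts in every sample, no filter at all, the omission of each sample, the replicate number as a block, glmTreat, and minimums of 20 and 100 mean counts. Each chi-square of a pair of libraries per gene was 2.54 to 4.00 within groups and 51.8 to 56.0 between them, and none was treated as a repeat.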

Additional observations from a re-analysis of the deposited data

How the results depend on the processing

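For 54 lincRNAs named in the text, 584 of 702 comparisons with an alternative gave the same direction and call, 54 kept the direction but were no longer called, 25 were newly called and 39 changed sign. All 38 calls of DESeq2 were among the 50 of the edgeR test, and leaving out 1 library kept 41 to 46 of them. Depth limits the members under 100 counts, with a median standard error of 0.21. The causes of the changes below were not tested.

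Members called higher numbered 19 with DESeq2, 45 by library size and 0 with the T cell marker scaling, with 88 lower in the last. Past the fold threshold, 2 were higher by library size, 1 by upper quartile and 0 to 1 without single libraries, 16 were lower with the T cell marker scaling, and 3 were lower by glmTreat; a minimum of 20 counts gave 4 higher and 13 lower of 247 lincRNAs, and a minimum of 100 gave 3 lower of 82. The members' median log2 fold change was 0.21 by library size, 0.17 by upper quartile and −0.47 with the T cell marker scaling. Without Neat1 the members held 0.323% and 0.314% of all counts.

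For the nuclear architecture group, 0 members were higher with DESeq2 or the T cell marker scaling and 0 to 1 without single libraries, 1 was lower by library size or upper quartile and 1 to 2 without single libraries, and the median was −0.015 by library size and −0.70 with the T cell marker scaling. For the small nucleolar RNA hosts, 0 were higher with DESeq2, 1 with no filter, 1 with at least 10 counts in every sample and 0 to 3 without single libraries, and with the T cell marker scaling 0 were higher, 4 were lower and the median was −0.38. For the microRNA hosts, the median was 0.0050 by library size, −0.026 by upper quartile and −0.68 with the T cell marker scaling, with 0 higher and 2 lower in the last. For the immune lncRNAs, the T cell marker scaling gave 0 higher, 2 lower and a median of −0.37, and 0 to 1 were lower without single libraries. For the growth group, 1 was higher by library size or upper quartile, 4 were lower with a median of −0.67 with the T cell marker scaling, and 0 to 1 were lower without single libraries.

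With the T cell marker scaling, 21 single members changed sign: Gm26917 (−0.089), Gm2682 (−0.097), Snhg6 (−0.56), Snhg20 (−0.36), Epb41l4aos (−0.39), Snhg12 (−0.38), Gm26809 (−0.17), Mir17hg (−0.18), Pvt1 (−0.31), Mirt1 (−0.57), Ftx (−0.087), Gm42047 (−0.55), 4632404H12Rik (−0.32), AI480526 (−0.31), A430046D13Rik (−0.22), Gm37387 (−0.19), E130102H24Rik (−0.33), 2900076A07Rik (−0.31), 6720427I07Rik (−0.20), Gm38102 (−0.097) and Gm32633 (−0.075). The other 18 changes of sign were in 7 members that were not called. By library size these were Norad (2900097C17Rik, 0.024), Mir155hg (0.0050), Gm10076 (0.083) and 5033406O09Rik (0.084), and by upper quartile Gm10076 (0.049) and 5033406O09Rik (0.053). Without single libraries, Snhg6 ran from −0.057 to 0.099, Gm10076 from −0.45 to 0.25, Mirt1 from −0.10 to 0.098, Gm42047 from −0.017 to 0.088 and 5033406O09Rik from −0.14 to 0.19.

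The replicate numbers did not pair the samples (correlations of deviations between same-numbered samples from −0.059 to −0.0094). With the replicate block, 48 of the 50 calls remained, 1 small nucleolar RNA host was higher, and Gm10076 was at 0.0091.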
